A study of Homo sapiens with 6 samples.

Results

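The RAS to ERK kinase cascade was examined through 7 of its genes: NRAS and HRAS at the RAS step, ARAF and BRAF at the RAF step, MAP2K1 and MAP2K2 at the MEK step and MAPK3 at the ERK step. They were taken from the deposited count table by gene name, 1 row each, out of 58735 genes, and all 7 passed the filter on low counts that left 15754 genes for testing. Other genes of the same steps were not analysed here. A549 is a human lung adenocarcinoma cell line. The study sequenced RNA of A549 cells made to overexpress IL17D, a cytokine of the IL-17 family, by lentiviral transduction (3 libraries) and of controls with an empty vector (3 libraries). In the vector, IL17D was driven by a PGK promoter, and GFP followed it in the same transcript. Both groups were grown in RPMI1640 with fetal bovine serum. Whether the 3 libraries of a group stem from independent transductions or cultures is not given in the sources used here, so p-values measure the spread between these libraries, which may be technical.

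RAS proteins are small GTPases that sit on the inner face of the plasma membrane and pass on the signal of growth factor receptors while they hold GTP. GTP-bound RAS recruits RAF kinases, RAF phosphorylates MEK, and MEK phosphorylates ERK, which then acts on cytoplasmic kinases and on transcription factors. Most of the control lies in nucleotide exchange and phosphorylation, which RNA counts do not measure. The cascade is known for driving growth in lung adenocarcinoma. The study also examined the phosphorylation of mitogen-activated protein kinases (MAPKs), ERK among them, by western blotting. The counts bear on transcript levels only.

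The overexpressed gene separated the groups: IL17D had 1.48, 1.24 and 2.11 CPM (counts scaled to library size, with TMM factors) in control replicates 1, 2 and 3 and 1901, 1956 and 1876 CPM in the IL17D-overexpressing replicates, a log2 fold change of 10.19 (edgeR quasi-likelihood, adjusted p = 2.5e-47). Counts on genes totalled 14319398 to 16521021 per library. The epithelial keratins KRT8, KRT18 and KRT7 were abundant, with 7648, 3591 and 1650 CPM on average in control cells. The lung lineage markers NKX2-1, SFTPB and SFTPC were at or near 0, with 0.450, 0.213 and 0.0899 CPM in control cells, and EPCAM had 1.05 CPM. Markers of leukocytes summed to 0.911 to 1.66 CPM in all libraries, with PTPRC and CD3E at 0, and those of endothelial cells to 0.0701 to 0.608 CPM. The fibroblast list summed to 19.3 to 24.6 CPM, nearly all from COL1A1. In bulk RNA, fewer cells that express a gene and less RNA per cell cannot be told apart.

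None of the 7 members passed the test between IL17D-overexpressing and control cells. The count was 0 of 7 at an adjusted p under 0.05 and 0 of 7 at an unadjusted p under 0.05 by edgeR (quasi-likelihood), and 0 and 0 also by DESeq2 (Wald test) and limma voom. Without control replicate 1, 1 member, MAP2K2, had an unadjusted p under 0.05 by edgeR (log2 fold change 0.094, adjusted p = 0.461). Across all tested genes, 1.58% had an adjusted p under 0.05 (0.673% higher and 0.908% lower) and 11.6% an unadjusted p under 0.05. The members' log2 fold changes lay between -0.054 (ARAF) and 0.077 (BRAF), with a median of 0.048 over the members and of -0.00044 over all tested genes. In size, their median was 0.054 against 0.084 over all tested genes. This comparison does not adjust for precision: the standard error was larger than a member's in 50.8% (BRAF) to 91.4% (MAP2K2) of all tested genes. A p that misses the threshold does not show equal levels, and the intervals give what remained possible: over the 7 members, the 95% intervals of the log2 fold change ran from -0.17 at the lowest bound (ARAF) to 0.27 at the highest (BRAF).

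**Figure D1:**
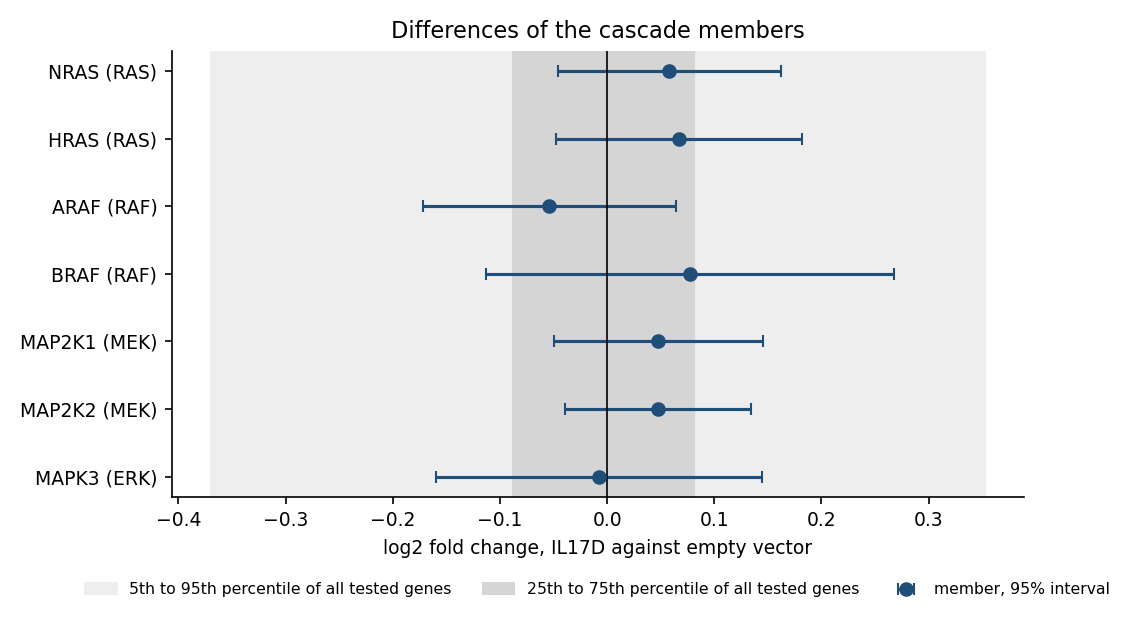
Log2 fold change of each member, IL17D-overexpressing against control cells (x axis), with its 95% interval from edgeR's fit; shaded bands show the central ranges of all 15754 tested genes (25th to 75th percentile, -0.087 to 0.081; 5th to 95th percentile, -0.37 to 0.35). All 7 intervals include 0, and all 7 points lie within the inner band. The bands include many genes with larger standard errors than the members.

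At the RAS step, NRAS and HRAS code for proteins that are nearly alike in the part that binds GTP and effectors, and that differ in the C-terminal hypervariable end, whose lipid anchors decide the membrane they reach. The coding sequences show the same division. The stretch that codes for the hypervariable end is printed because the 2 coding sequences differ more there than before it. Of the last 75 coding bases, 37 differ between NRAS and HRAS, against 116 of the 492 bases before them. The sequences are from GENCODE release 29 on GRCh38, 5′ to 3′ on the coding strand, which is the minus strand for both. Capitals mark bases that differ between the pair. NRAS lies in exon 5 of its principal transcript (chr1:114708538-114708612), and HRAS also in exon 5 (chr11:532639-532713).
NRAS: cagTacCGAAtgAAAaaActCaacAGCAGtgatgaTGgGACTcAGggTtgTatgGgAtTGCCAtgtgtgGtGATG
HRAS: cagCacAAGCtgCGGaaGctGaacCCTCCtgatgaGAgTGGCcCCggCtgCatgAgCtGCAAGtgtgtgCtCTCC

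NRAS (ENSG00000213281, chromosome 1 of GRCh38, 114704469 to 114716894) had 71.7, 73.8 and 77.5 CPM in control replicates 1, 2 and 3 and 77.0, 79.1 and 76.0 CPM in the IL17D-overexpressing replicates. The groups overlapped through control replicate 3, which lay above 2 of the IL17D-overexpressing libraries. Means were 74.3 ± 2.92 (control) and 77.4 ± 1.59 (IL17D-overexpressing) CPM (SD, n = 3 each), a log2 fold change of 0.058 (95% interval -0.046 to 0.16, edgeR adjusted p = 0.739). HRAS (ENSG00000174775, chromosome 11, 532242 to 537287) had 71.5, 67.1 and 64.7 CPM in control replicates 1, 2 and 3 and 75.8, 66.7 and 70.5 CPM in the IL17D-overexpressing replicates. Replicate 1 was the highest library of each group, and the groups overlapped. The log2 fold change of HRAS was 0.067 (95% interval -0.047 to 0.18, edgeR adjusted p = 0.721), the smallest p of the 7 members. By the root mean square difference of log2 CPM, each gene centred on its own mean over the 6 libraries, the genes most like HRAS among 9740 genes with at least 10 CPM were H2AFJ, CNNM4 and GPX4 (0.017, 0.019 and 0.021). The nearest of so many genes are close by selection, so the likeness does not show shared regulation. Their transcripts have 62.9%, 55.5% and 63.0% GC, and that of HRAS 65.2%. Whether GC content accounts for the likeness was not tested.

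At the RAF step, ARAF and BRAF code for serine/threonine kinases that RAS brings to the membrane, where they act as dimers. ARAF is known as the weaker MEK kinase and BRAF as the stronger. Their most similar 100 coding bases within 1 exon are shown because they give the least difference of the pair over such a length. Of these, 25 differ, and the longest identical run in the whole coding sequences is 21 bases. The ARAF stretch is in exon 5 (chrX:47564985-47565084, plus strand) and the BRAF stretch in exon 6 (chr7:140801461-140801560, minus strand), again in GENCODE release 29 on GRCh38 with differing bases in capitals.
ARAF: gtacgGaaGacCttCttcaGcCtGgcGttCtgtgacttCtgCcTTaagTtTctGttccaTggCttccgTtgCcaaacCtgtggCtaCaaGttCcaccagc
BRAF: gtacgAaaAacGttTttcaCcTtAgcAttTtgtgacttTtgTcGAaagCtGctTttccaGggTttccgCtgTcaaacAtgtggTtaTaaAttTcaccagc

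ARAF (ENSG00000078061, chromosome X, 47561100 to 47571920) had 73.7, 68.6 and 65.3 CPM in control replicates 1, 2 and 3 and 71.3, 66.8 and 61.7 CPM in the IL17D-overexpressing replicates. The ranges overlapped over most of their width. ARAF and MAPK3 were the members with a log2 fold change below 0, and that of ARAF was -0.054 (95% interval -0.17 to 0.065, edgeR adjusted p = 0.806). BRAF (ENSG00000157764, chromosome 7, 140719327 to 140924928) had 19.1, 25.2 and 24.6 CPM in control replicates 1, 2 and 3 and 23.0, 24.5 and 25.1 CPM in the IL17D-overexpressing replicates. Control replicate 1 lay apart below the other 5 libraries. The log2 fold change of BRAF was 0.077 (95% interval -0.11 to 0.27, edgeR adjusted p = 0.836), and without control replicate 1 it was -0.042 (adjusted p = 0.934), so its sign rested on that library. NDUFB2, a gene on the opposite strand, shares 1239 exonic bases with BRAF, which is 5.29% of BRAF's exonic length, and whether the counting used strand is not given in the sources used here.

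At the MEK step, MAP2K1 and MAP2K2 code for MEK1 and MEK2, kinases of dual specificity that phosphorylate ERK on a threonine and a tyrosine. They are the closest pair of the cascade here in identity outside gaps and in the longest identical run. Their coding sequences were identical at 74.7% of aligned positions without gaps, against 73.0% for NRAS and HRAS and 63.5% for ARAF and BRAF. The longest identical run was 38 bases, against 14 for NRAS and HRAS and 21 for ARAF and BRAF. Gaps took 27 aligned positions of the MEK pair and 0 of the RAS pair. The order of these 2 pairs by identity therefore depends on leaving gaps out. The most similar 100 coding bases within 1 exon differed at 9 positions, marked by capitals. They lie in exon 6 of MAP2K1 (chr15:66481760-66481859, plus strand) and exon 6 of MAP2K2 (chr19:4101039-4101138, minus strand).
MAP2K1: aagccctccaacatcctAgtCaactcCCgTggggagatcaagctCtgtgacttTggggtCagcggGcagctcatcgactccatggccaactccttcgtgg
MAP2K2: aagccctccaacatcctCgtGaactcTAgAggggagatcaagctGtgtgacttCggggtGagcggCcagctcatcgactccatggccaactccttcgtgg

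MAP2K1 (ENSG00000169032, chromosome 15, 66386817 to 66492312) had 82.2, 80.8 and 84.0 CPM in control replicates 1, 2 and 3 and 85.0, 84.9 and 85.5 CPM in the IL17D-overexpressing replicates. It was the only member whose groups did not overlap, with all IL17D-overexpressing libraries above all control libraries. Such a separation in this direction was found for 7.48% of all tested genes, and the opposite one for 8.31%. Means were 82.3 ± 1.60 (control) and 85.1 ± 0.322 (IL17D-overexpressing) CPM (SD, n = 3 each), and the log2 fold change of 0.048 did not pass the test (95% interval -0.050 to 0.15, edgeR adjusted p = 0.782). SNAPC5 and an antisense gene share 216 and 432 exonic bases with MAP2K1 on the opposite strand. MAP2K2 (ENSG00000126934, chromosome 19, 4090321 to 4124129) had 174, 161 and 157 CPM in control replicates 1, 2 and 3 and 172, 163 and 174 CPM in the IL17D-overexpressing replicates. Control replicate 1 lay with the highest libraries, so the groups overlapped. The log2 fold change of MAP2K2 was 0.048 (95% interval -0.039 to 0.13, edgeR adjusted p = 0.744). Of the 31-base stretches in the transcripts of MAP2K1, 0.215% also occur in MAP2K2, and 6.73% occur in its pseudogene MAP2K1P1, which had 18 counts over all 6 libraries. Transcripts of any other gene, on either strand, hold 13.9% of the stretches of MAP2K1, 12.5% of those of MAP2K2 and 9.86% of those of BRAF. The share was 3.40% for MAPK3 and lower for NRAS, HRAS and ARAF.

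At the ERK step, MAPK3 (ENSG00000102882, chromosome 16, 30114105 to 30123506) codes for ERK1, the kinase that MEK activates. It had 33.5, 33.0 and 33.9 CPM in control replicates 1, 2 and 3 and 30.0, 35.5 and 34.6 CPM in the IL17D-overexpressing replicates. The 3 control libraries lay together inside the range of the IL17D-overexpressing libraries. Means were 33.5 ± 0.488 (control) and 33.3 ± 2.96 (IL17D-overexpressing) CPM (SD, n = 3 each), a log2 fold change of -0.0075 (95% interval -0.16 to 0.14, edgeR adjusted p = 0.988). The sign changed when control replicate 3 or IL17D-overexpressing replicate 1 was left out (0.0034 and 0.066).

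**Figure D2:**
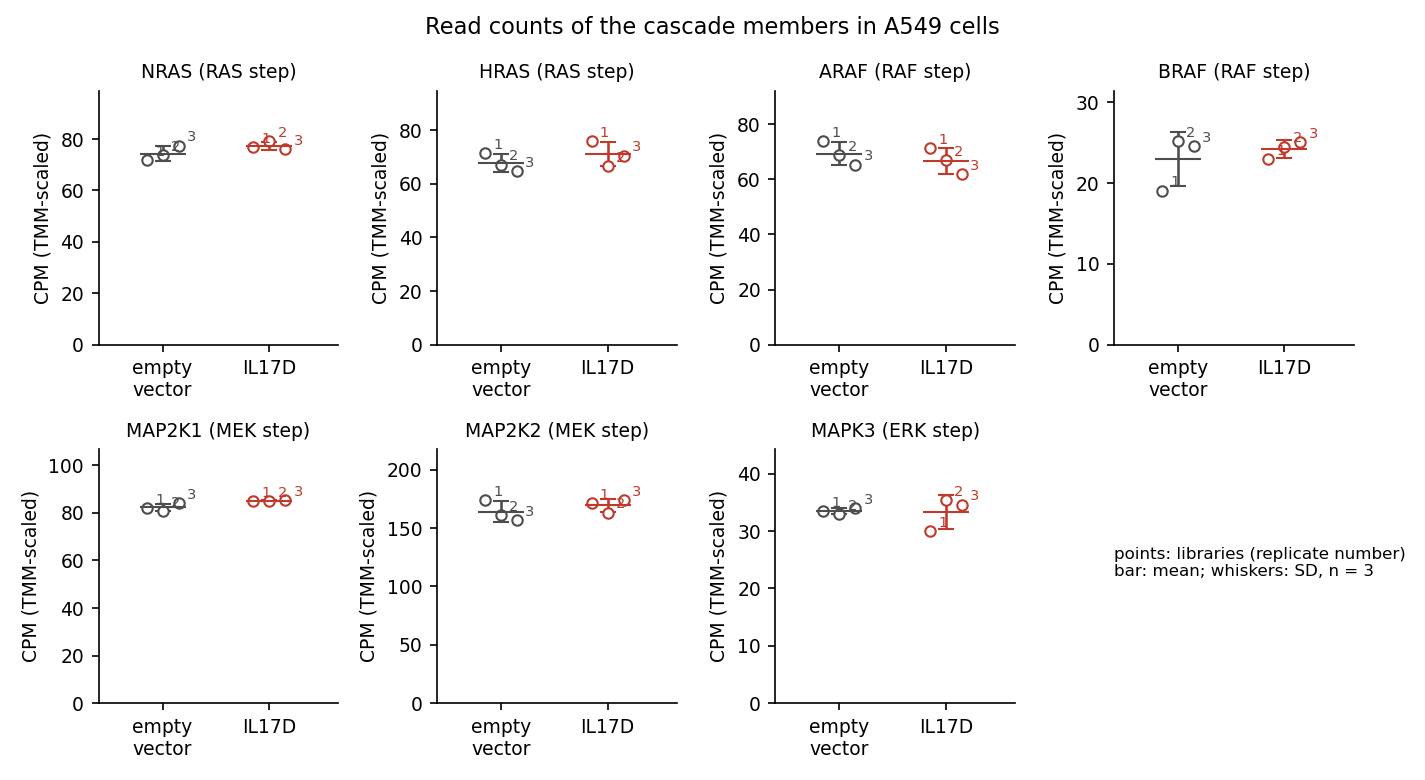
CPM of the 7 members in each library (y axis, from 0), with control libraries in grey and IL17D-overexpressing libraries in red; the bar is the mean, whiskers are the SD of 3 libraries, and small numbers give the replicate. MAP2K1 is the only member whose 2 groups do not overlap, and control replicate 1 is the low library of BRAF at 19.1 CPM.

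Levels between members were compared per length, as CPM per kilobase of all exonic bases of the gene. HRAS was highest, with 36.6 ± 1.87 in control and 38.3 ± 2.46 in IL17D-overexpressing cells (SD, n = 3 each). MAP2K2 followed with 31.3 ± 1.75 and 32.4 ± 1.06, MAP2K1 with 21.9 ± 0.426 and 22.6 ± 0.0857, and ARAF with 19.6 ± 1.20 and 18.8 ± 1.35. NRAS had 16.7 ± 0.657 and 17.4 ± 0.356, MAPK3 9.13 ± 0.133 and 9.09 ± 0.806, and BRAF 0.980 ± 0.144 and 1.03 ± 0.0465. ARAF and NRAS were the only neighbours in this order whose ranges over the 6 libraries overlapped. The order depends on the length used. The exonic length and that of the principal transcript were 5236 and 1734 bases for MAP2K2 and 3669 and 1861 for MAPK3. They were 3535 and 2458 bases for ARAF. For BRAF they were 23432 and 6458 bases, the former including long alternative transcripts, but its rank did not change. Per kilobase of the principal transcript, a length chosen after the data were seen, MAP2K2 was highest (94.5 ± 5.27 in control cells), HRAS second (58.9 ± 3.01), and BRAF still last (3.55 ± 0.522), and MAPK3 and NRAS were then the neighbours that overlapped.

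The shares of the members in their pairs did not pass a test between the groups. Shares were computed per library from counts divided by exonic length. NRAS made up 29.5%, 31.4% and 33.3% of NRAS plus HRAS in control replicates 1, 2 and 3 and 29.7%, 33.1% and 31.01% in the IL17D-overexpressing replicates. The means were 31.4% ± 1.92 and 31.3% ± 1.69 (SD, n = 3 each), and the difference of -0.128 percentage points was smaller than the spread of either group. ARAF made up 96.2%, 94.8% and 94.6% of ARAF plus BRAF in control replicates 1, 2 and 3 and 95.4%, 94.8% and 94.2% in the IL17D-overexpressing replicates. Control replicate 1, the low library of BRAF, held the highest share, and the means were 95.2% ± 0.900 and 94.8% ± 0.571 (SD, n = 3 each). Per length of the principal transcripts, the ARAF share was 88.7% ± 1.99 and 87.8% ± 1.24 (SD, n = 3 each). MAP2K1 made up 39.7%, 41.2% and 42.8% of MAP2K1 plus MAP2K2 in control replicates 1, 2 and 3 and 40.8%, 42.0% and 40.7% in the IL17D-overexpressing replicates. The means were 41.2% ± 1.55 and 41.2% ± 0.735 (SD, n = 3 each), and they differed by -0.0194 percentage points. The NRAS and MAP2K1 shares also depended on the length used. Per length of the principal transcripts, the NRAS share was 22.1% ± 1.53 in control and 22.03% ± 1.35 in IL17D-overexpressing cells. The MAP2K1 share was then 20.4% ± 1.04 and 20.4% ± 0.494 (SD, n = 3 each). In counts not divided by length, control cells had 52.3% ± 2.22 for NRAS, 75.1% ± 3.79 for ARAF and 33.5% ± 1.43 for MAP2K1. Two-sided exact permutation tests over the 6 libraries gave p = 0.9 for the NRAS, 0.6 for the ARAF and 1.0 for the MAP2K1 share, each 1.0 after adjustment over the 3 pairs. With 3 libraries against 3, this test cannot give a p below 0.1.

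**Figure D3:**
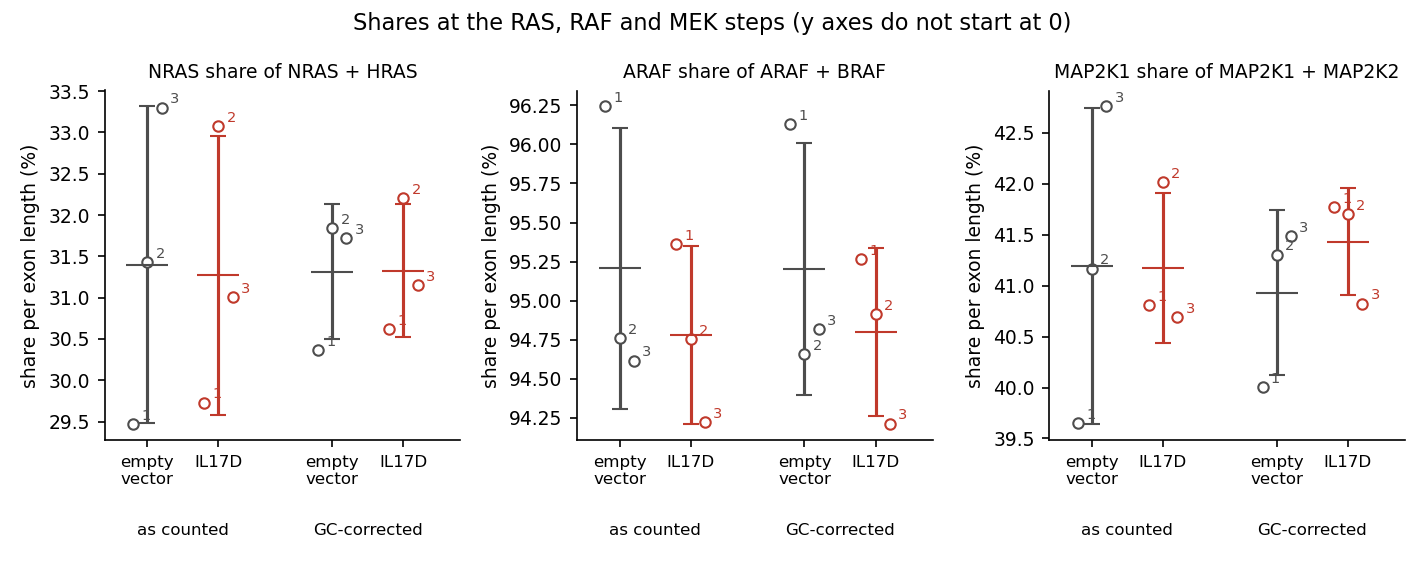
Share of the first member in the length-scaled sum of its pair (y axes in percent, not starting at 0) by library, as counted and after the GC trend of each library was removed; bars are means, whiskers the SD of 3 libraries, and small numbers give the replicate. The groups overlap in all 3 pairs, and removing the trend narrows the NRAS and MAP2K1 shares, from an SD of 1.92 to 0.819 and from 1.55 to 0.808 in control cells.

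The libraries differed in their trend on GC content, and the members followed it in some libraries and not in others. HRAS, MAP2K2, MAPK3 and ARAF have GC-rich principal transcripts, with 65.2%, 65.5%, 61.8% and 58.9% GC, MAP2K1 has 50.4%, and BRAF and NRAS have 41.1% and 38.4%. Each pair therefore joins a GC-rich and a GC-poorer gene. In control replicate 3, the median of the 10% of genes richest in GC lay at -0.060 (log2 CPM minus the mean of the 6 libraries), and that of the poorest 10% at 0.042. HRAS, MAP2K2 and ARAF lay at -0.099, -0.088 and -0.054 in that library, and NRAS and BRAF at 0.031 and 0.069. In IL17D-overexpressing replicate 1, the richest genes lay at 0.043, and HRAS, ARAF and MAP2K2 at 0.13, 0.073 and 0.044. The poorest genes lay at -0.013 there, with BRAF at -0.030 but NRAS, against the trend, at 0.022. MAPK3 did not follow the richest genes in that library, at -0.15, nor in control replicate 3, at 0.025. In control replicate 2 the members split: the richest genes lay at 0.022 and the poorest at -0.012. HRAS, MAP2K2 and MAPK3, at -0.046, -0.050 and -0.017, and BRAF, at 0.10, went against the trend. ARAF, at 0.018, and NRAS, at -0.038, followed it. The 2 libraries with the highest NRAS shares, control replicate 3 and IL17D-overexpressing replicate 2, were those in which GC-rich genes lay lowest. After the trend of each library on GC content was removed, a step chosen after the data were seen, the NRAS share was 31.3% ± 0.819 and 31.3% ± 0.808, and the MAP2K1 share 40.9% ± 0.808 and 41.4% ± 0.527 (SD, n = 3 each). After its removal, 0 members passed edgeR's test.

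**Figure D4:**
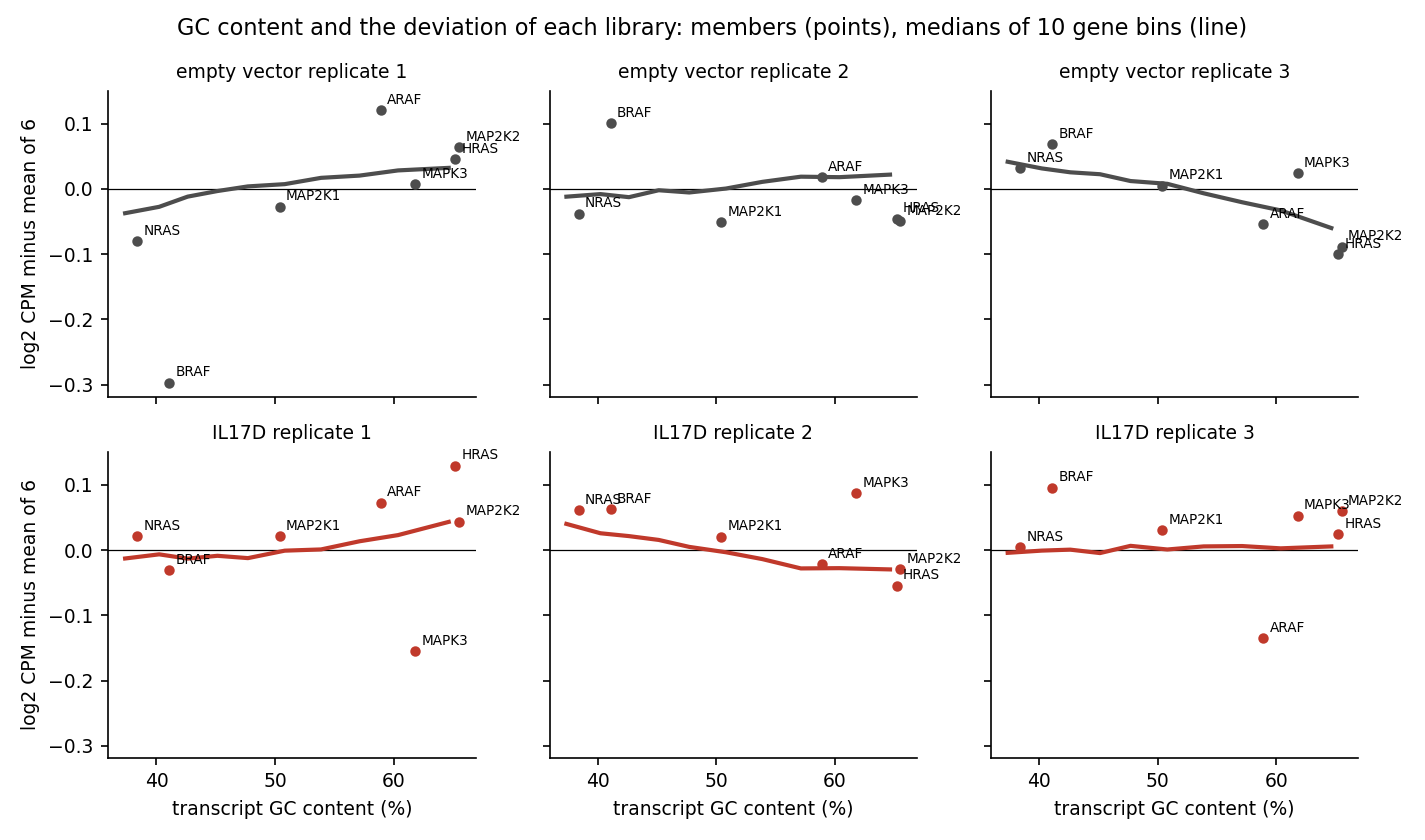
Deviation of log2 CPM from the mean of the 6 libraries (y axis) against transcript GC content in percent (x axis), 1 panel per library; the line joins the medians of 10 bins of genes and points are the 7 members. From its GC-poor to its GC-rich end the line falls in control replicate 3 and IL17D-overexpressing replicate 2 and rises in the other 4 libraries, least in IL17D-overexpressing replicate 3; HRAS and MAP2K2 lie on the same side of 0 as its GC-rich end except in control replicate 2, where they lie at -0.046 and -0.050.

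The other genes of the pathway were taken from 9 lists of 120 distinct genes, of which 110 were tested. Only PHLDA1 passed, 0.909% of the tested genes of the lists, beside 1.58% of all genes. At an unadjusted p under 0.05 there were 17 of the 110 (15.5%, against 11.6% of all genes), and groups that did not overlap for 19 (17.3%, against 15.8%). The median log2 fold change over the 110 genes was 0.024, with 63 higher and 47 lower.

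Among the regulators, modifying enzymes and relatives of RAS, none of the tested genes passed. Of 17 exchange factors and adaptors, which load RAS with GTP or link it to receptors, 11 were tested, 8 higher and 3 lower, with a median of 0.044. SHC1, an adaptor of receptor tyrosine kinases and the most abundant of the list in CPM, had 395 ± 22.1 CPM in control and 403 ± 20.1 CPM in IL17D-overexpressing cells, and FRS2, the docking protein of FGF receptors, differed by 0.19 on the log2 scale (edgeR adjusted p = 0.351). Of 10 GTPase-activating proteins, which switch RAS off, 8 were tested, 5 higher and 3 lower, with a median of 0.024. NF1, neurofibromin, had 192 ± 11.8 and 201 ± 0.854 CPM (SD, n = 3 each). The 12 genes of RAS lipid modification and membrane traffic split into 6 higher and 6 lower, with a median of -0.0016. Among them RCE1, the protease that trims farnesylated RAS, had 38.0 ± 1.23 and 42.9 ± 1.93 CPM without overlap of the groups (edgeR adjusted p = 0.254), and ICMT, which methylates the trimmed end, had 157 ± 5.21 and 153 ± 2.50 CPM. Of 12 RAS-related GTPases, 11 were tested, 5 higher and 6 lower, with a median of -0.022. RAP1B had 91.3 ± 0.242 and 89.4 ± 3.002 CPM, and RIT1 differed by -0.15 on the log2 scale (edgeR adjusted p = 0.518).

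Beside the kinases, 25 scaffolds, chaperones and 14-3-3 proteins split into 12 higher and 13 lower, with a median of -0.010 and none past the test. HSP90AA1, a chaperone on which RAF kinases depend, had 2693 ± 20.4 and 2727 ± 20.8 CPM, and YWHAG, a 14-3-3 protein, had 550 ± 16.4 and 586 ± 11.4 CPM (SD, n = 3 each) without overlap (edgeR adjusted p = 0.179). YWHAG passed in edgeR once control replicate 3 was left out (adjusted p = 0.0424) or the GC trend was removed (adjusted p = 0.0445). Of 14 kinases of the parallel cascades, 13 were tested, 5 higher and 8 lower, with a median of -0.019. MAP2K3, an activator of p38, had 103 ± 1.87 and 109 ± 1.66 CPM, and MAP2K5, the activator of ERK5, had 26.5 ± 1.54 and 22.8 ± 1.56 CPM. In each of these the groups did not overlap, and neither passed (edgeR adjusted p = 0.457 and 0.293).

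Downstream of ERK, PHLDA1 rose. PHLDA1, which is among the transcripts used as a readout of ERK but also responds to other signals, had 137, 136 and 138 CPM in control replicates 1, 2 and 3 and 156, 161 and 144 CPM in the IL17D-overexpressing replicates. All IL17D-overexpressing libraries lay above all control libraries, and the log2 fold change was 0.17 (standard error 0.043, edgeR adjusted p = 0.030). The call did not hold in most fits with a library left out. EdgeR's adjusted p became 0.0836 or 0.108 when control replicate 1 or 2 was dropped. It became 0.153 or 0.205 when IL17D-overexpressing replicate 1 or 2 was dropped. Without control replicate 3 or IL17D-overexpressing replicate 3 it was 0.0294 and 0.0149. The log2 fold change stayed between 0.14 and 0.21 under the alternatives. Of the 10 readout transcripts, 9 had a log2 fold change above 0 and 1 below, with a median of 0.10. An unadjusted p under 0.05 by edgeR was found for 4 of them, and groups without overlap for 5. Over all tested genes, 49.9% were above 0, 11.6% had such a p and 15.8% had groups without overlap. The transcript below 0, ETV5, was 1 of the 4 with such a p, with a log2 fold change of -0.16 (edgeR unadjusted p = 0.012, adjusted p = 0.242). Its groups did not overlap, with the IL17D-overexpressing libraries lower. CCND1, cyclin D1, had 464 ± 6.03 and 478 ± 7.15 CPM (edgeR adjusted p = 0.668). Of 11 phosphatases and Sprouty-family inhibitors, which dampen ERK signaling and share 4 genes with the readout list, 9 were higher and 2 lower, with a median of 0.086 and none past the test. An unadjusted p under 0.05 by edgeR was found for 4 of the 11 (36.4%), and groups without overlap for 3 (27.3%). Of those 4 genes, SPRY1 was lower and the rest were higher. DUSP4, a nuclear ERK phosphatase, had 438 ± 2.97 and 465 ± 8.34 CPM, and SPRY1 went the other way, with 5.61 ± 0.531 and 3.78 ± 0.185 CPM (edgeR adjusted p = 0.225 and 0.116). The 13 substrates of ERK had 8 higher and 5 lower, with a median of 0.045 and none past the test. An unadjusted p under 0.05 by edgeR was found for 4 of the 13 (30.8%), and groups without overlap for 3 (23.1%). Of those 4 genes, RPS6KA3 was lower and the rest were higher. The most abundant of them in CPM, RPS6KA3, which codes for the kinase RSK2, had 177 ± 8.21 and 164 ± 3.86 CPM without overlap of the groups (edgeR adjusted p = 0.197).

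**Figure D5:**
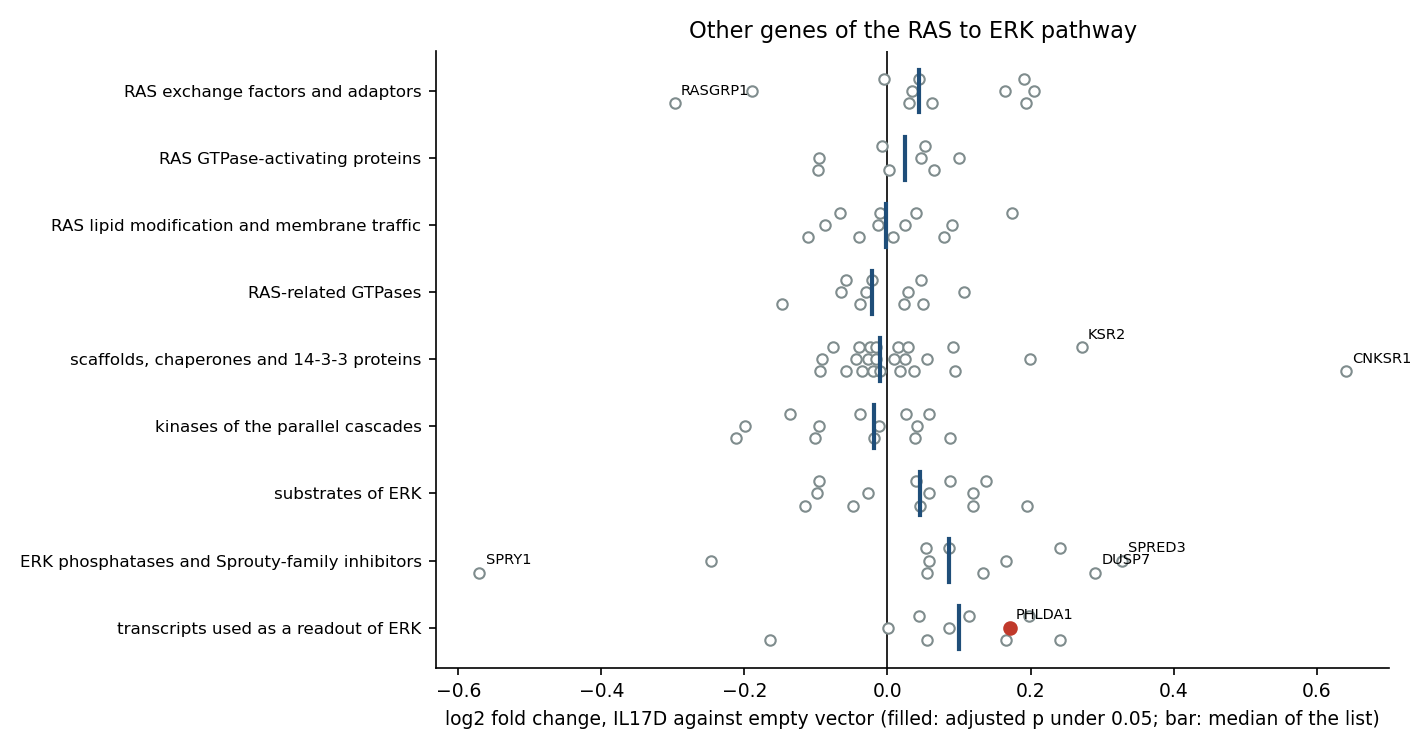
Log2 fold change (x axis) of each tested gene of the 9 lists, 1 row per list, with the median of the list as a bar and genes past the test filled; genes over 0.25 in size are labelled. PHLDA1 is the only filled point, at 0.17, and the readout and phosphatase lists have the highest medians, at 0.10 and 0.086.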

How the data were processed

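RNA-seq counts from 3 control and 3 IL17D-overexpressing A549 libraries were analysed. The authors deposited 1 table of raw read counts per gene, without normalization; 0 per-sample columns were left out. The submitters' processing notes name Bowtie2 and hg38; the counting tool and strand setting are not given in the sources used here. All 58735 genes had GENCODE release 29 coordinates, and the gene length in the table equalled the union of exons.

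Genes were filtered by edgeR's filterByExpr, scaled by TMM and compared with the quasi-likelihood test without covariates (R 4.3.3, edgeR 4.0.16), two-sided, with Benjamini-Hochberg adjustment over 15754 genes. DESeq2 1.42.0, limma 3.58.1 (voom), other filters, the replicate number as a block and each library left out were alternatives. Shares were tested by exact permutation (scipy 1.17.1), and transcript GC trends were fitted by loess. Steps were tested on simulated data. The members and lists were chosen with earlier results of these data known. Named genes are the members, IL17D, and in each list those past the test, with the smallest p and with the highest CPM, besides the 3 genes most like the member with the smallest p. A count of 0 in a library allows up to 3 counts, 0.182 to 0.210 CPM, for counting error only.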

Additional observations from a re-analysis of the deposited data

How the results depend on the processing

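The count of members past the test was 0 under all 13 alternatives, and the adjusted p of a member was never below 0.461. NRAS, HRAS, ARAF, MAP2K1 and MAP2K2 kept their direction under all 13; with a library left out, the log2 fold change of BRAF ran from -0.042 (without control replicate 1) to 0.15, that of MAPK3 from -0.056 to 0.066 (without IL17D-overexpressing replicate 1; 0.0034 without control replicate 3) and that of SHC1 from -0.0045 (without control replicate 3) to 0.073. The log2 fold change of IL17D stayed between 10.05 and 10.44. The count of pathway genes past the test, 1 in the main test, was 0 to 2 when a library was left out and 3 after GC correction (EPHA2, PHLDA1 and YWHAG), an alternative chosen after the data were seen; the cause was not tested. The NRAS share difference, -0.128 points, was -1.09 to 0.822 points when a library was left out and 0.0141 after GC correction. The ARAF share difference, -0.426 points, was -0.721 to 0.0922 (without control replicate 1) when a library was left out and -1.78 with counts not divided by length, where BRAF weighs more. The MAP2K1 share difference, -0.0194 points, was -0.790 to 0.764 when a library was left out and 0.498 after GC correction. Same-numbered libraries did not deviate together (correlations of deviations from group means -0.0151 to 0.00997), so the replicate numbers were not taken as pairs. With the replicate block, 0 members and 1 pathway gene passed, and 272 of all genes against 249 without it. Differences inside the members' intervals could not be resolved with 3 libraries per group at this depth; how much of their width is counting error was not tested.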
